A study of Mus musculus with 4 samples.

Results

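The genes described here encode accessory structures of the sperm tail: the fibrous sheath (Akap3, Akap4, Fsip2, Cabyr, Ropn1 and Ropn1l), the outer dense fibres (Odf1 and Odf2) and the mitochondrial sheath (Smcp and Spata19). They were chosen by name, with earlier results of these data known. The probe annotation of the array paired each of the 10 symbols with 1 probe set of its own. All 10 therefore had a value among the 18820 genes with 1 value each. RNA came from whole testes of adult Azin2 knock-out (KO) mice, 3 to 4 months old and of a C57BL/6 mixed background, which carry a β-Geo cassette in both copies of the Azin2 locus, and of Azin2 wild type (WT) mice. No treatment is stated for either genotype. Each genotype was measured on 2 arrays, with the pooled RNA of 3 mice on each. The values are the authors' RMA output, that is, log2 signals that were corrected for background, normalized across arrays and combined over the probes of each probe set. KO was compared with WT by limma, whose estimate of a probe set's spread borrows from all others, on 23099 named probe sets, with p-values adjusted by the Benjamini-Hochberg method. Signals of the 10 genes are given for each pool, and a difference is that between the means of 2 pools. No source states that the pools of a genotype were independent. The p-values therefore measure only spread between these pools, in limma that of the probe set itself together with that of the others. With so few arrays the precision is limited.

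The sperm tail is built in haploid spermatids, late in spermatogenesis. Outer dense fibres run along the axoneme and stiffen the tail. In the midpiece they are wrapped by the mitochondrial sheath, and in the principal piece by the fibrous sheath, which holds protein kinase A and glycolytic enzymes close to the axoneme. AKAP4 and AKAP3, anchoring proteins for that kinase, are main building blocks of the fibrous sheath. ROPN1 and ROPN1L bind AKAP3 through a domain that resembles the docking domain of the kinase's regulatory subunit.

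The members lie on 8 chromosomes, and 0 of the 10 lie on chromosome 4, which holds Azin2. In GRCm38.p6, Akap3 lies at chr6:126853098-126874308 and Akap4 at chrX:7067515-7078609. Promoters were taken from RefSeq (GRCm38.p6) as the 250 bases before and the 50 bases after each annotated start site. Of the 10 genes, 8 were searched as members, with 13 start sites in all. Odf1 and Cabyr were not among these 8, so that the comparisons of member promoters leave them out. The promoters of Akap3 and Akap4 are shown because they share the longest run of identical bases among these 8 genes, 20 bases, followed by 14 bases between Akap3 and Odf2. Akap4 has another start site among the 13, whose promoter shares a run of 10 bases with that of Akap3 and is not shown. For each gene the 100 bases before the start site with the 20-base run are given 5′ to 3′. They lie at chr6:126852998-126853097 on the plus strand for Akap3 and at chrX:7067415-7067514 on the plus strand for Akap4. The capitals mark the shared run.
Akap3: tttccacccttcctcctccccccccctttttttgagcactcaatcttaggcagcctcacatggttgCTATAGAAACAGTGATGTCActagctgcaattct
Akap4: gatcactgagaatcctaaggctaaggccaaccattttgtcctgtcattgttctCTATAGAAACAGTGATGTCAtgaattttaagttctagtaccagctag
The run begins at position -34 and ends at -15 in Akap3, and spans -47 to -28 in Akap4, counted from -1 for the base before the start site. Of 32851 promoters in the table, searched on both strands, 2 (0.00609%) held the run, those of Akap3 and Akap4. Its last 8 bases, TGATGTCA, were found in 3.62% of all promoters, which belong to 1130 of 27025 genes. Akap3 and Akap4 hold these bases as part of the run, so that both matches followed from its choice. Of the other searched members only Smcp held them, beginning 24 bases after its start site. The cAMP response element, TGACGTCA, which many spermatid genes carry, was found in 1.79% of all promoters and in none of the 13 member promoters, and the TATA box letters TATAAA in 13.6% and also in none. A match or its absence describes the letters in these windows only.

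As a check of the labels, Azin2 had log2 signals of 7.36 and 7.14 in the KO pools and of 10.16 and 9.998 in the WT pools, and it was the 1 probe set of 23099 (0.00433%) that passed an adjusted p of 0.05 from limma (adjusted p = 0.0250). Epididymis markers were dim on all 4 arrays (4 of 4 measured were at or below the array's median for named probe sets), while all 10 haploid spermatid markers and all 10 spermatocyte markers were above it. Of the somatic markers, Amh and Rhox5 of 9 Sertoli cell genes and Cd163 of 6 macrophage genes were at or below that median on all 4 arrays, as were Stra8, Sall4, Gfra1 and Nanos3 of 8 spermatogonia genes, and 0 of 6 Leydig cell genes. Fshr of the Sertoli cell genes and Cd68, Csf1r, Adgre1 and Cx3cr1 of the macrophage genes were at or below it on 1 to 3 of the arrays. Of 5 red blood cell markers 1 had a value, Alas2, and it was above the median.

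All 10 sperm tail genes gave bright signals, with means over the 4 arrays between 11.08 and 12.33. On each array each of them lay above at least 95.9% of the genes with a value. Probe sets differ in brightness for the same amount of RNA, so that this is a place on the array's scale and not an order of transcript levels. The highest signal of any probe set lay between 12.80 and 12.89. Near the top of the scale a change in RNA may give a smaller change in signal, which was not tested.

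None of the 10 genes differed between KO and WT testes by the test. The differences, KO minus WT on the log2 scale, ran from -0.048 for Odf2 to 0.018 for Spata19, with a median of -0.032, where the median over all 18820 genes was 0.011. At an adjusted p under 0.05 from limma, 0 of 10 were called, against 0.00531% of all genes. At an unadjusted p under 0.05 from limma 0 of 10 were called as well, as by the ordinary equal-variance test of the study's methods, where limma called 3.95% of all genes. The thresholds that the study used (an unadjusted p under 0.05 and a fold of 1.5 or more) were also passed by 0 of 10, against 0.0956% of all genes and 0.0823% of the named probe sets. The 95% interval of every member lay inside a fold of 1.5 either way. The widest reach of these intervals was a fold of -1.16 for Fsip2 on the lower side and of 1.11 for Spata19 on the upper side.

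**Figure D1:**
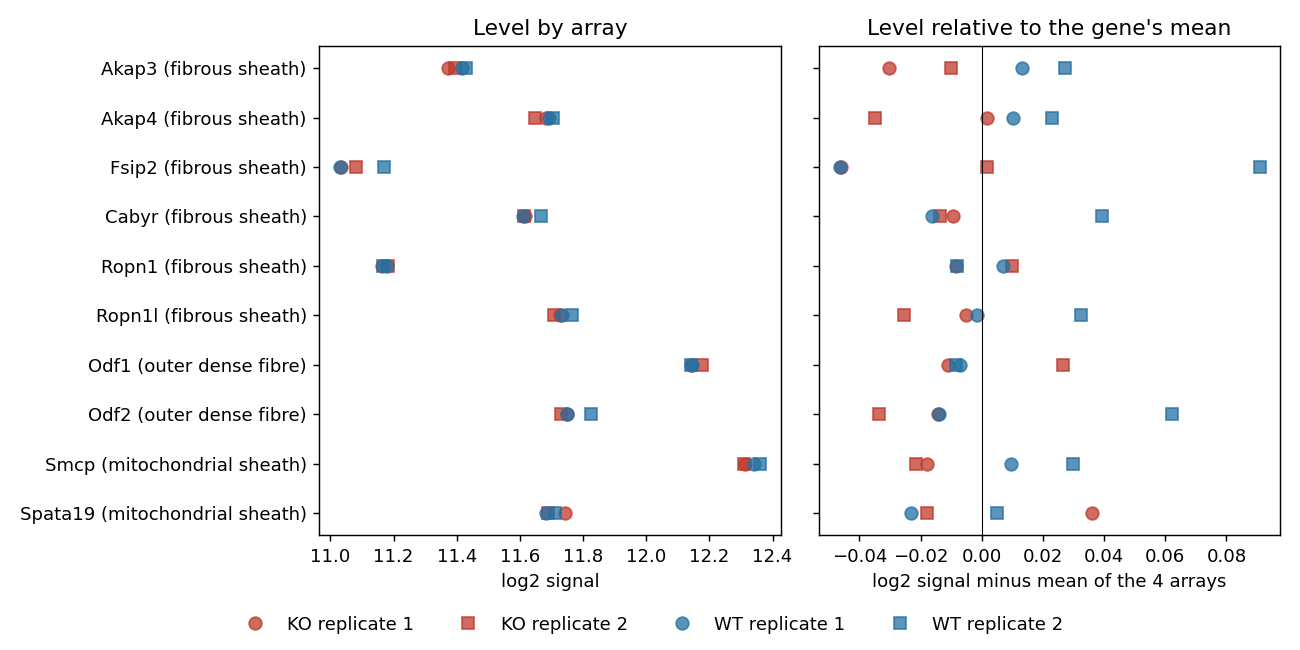
Log2 signal of the 10 genes by array (left) and the same signal minus the gene's mean over the 4 arrays (right), with KO pools in red, WT pools in blue, circles for replicate 1 and squares for replicate 2. The genes lie between 11.03 and 12.36, while the 4 arrays of a gene differ by at most 0.137; WT replicate 2 is the highest array for 7 of the 10 genes.

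Akap4, the X-linked gene of the most abundant fibrous sheath protein, had log2 signals of 11.684 and 11.647 in the KO pools and of 11.692 and 11.705 in the WT pools. Both WT pools were the higher ones, and the gap between the genotypes was 0.0085. The difference was -0.033 (95% interval -0.16 to 0.092, adjusted p = 0.9995 from limma). Akap3, whose protein joins AKAP4 in the sheath, was at 11.373 and 11.394 in KO and at 11.417 and 11.431 in WT testes. Its groups did not overlap either, and its difference was -0.040 (95% interval -0.16 to 0.083). Among the searched members without the shared run, Odf2 (-0.048), Fsip2 (-0.044), Smcp (-0.039) and Ropn1l (-0.031) were also below 0. Ropn1 (0.0014) and Spata19 (0.018) were above it. The intervals of all these genes span 0, and a part of the run in these values was not tested.

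Fsip2, at chr2:82943634-83008937, encodes a large protein that binds AKAP4. It was at 11.032 and 11.080 in KO and at 11.032 and 11.169 in WT testes, the widest spread among the 10 genes, and its groups overlapped. Its difference of -0.044 (95% interval -0.21 to 0.13) was 0.024 without WT replicate 2. Cabyr, at chr18:12740825-12755146, encodes a calcium-binding protein of the sheath that becomes phosphorylated on tyrosine during capacitation. The KO pools, at 11.617 and 11.612, and WT replicate 1, at 11.610, lay close together, and WT replicate 2 stood above them at 11.666. The difference of Cabyr was -0.023, and 0.0046 without WT replicate 2.

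The ropporin genes encode related proteins. Ropn1, at chr16:34649832-34678610, was at 11.165 and 11.183 in KO and at 11.180 and 11.165 in WT testes, with fully overlapping groups. Its difference of 0.0014 (95% interval -0.12 to 0.12) was the smallest of the 10, and under quantile normalization it was -0.0075. Ropn1l, at chr15:31441210-31453689, was at 11.728 and 11.708 in KO and at 11.732 and 11.766 in WT testes. Its genotypes did not overlap but were only 0.0036 apart at the nearest, and the difference was -0.031 (95% interval -0.16 to 0.095).

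Odf1 is the gene of the main outer dense fibre protein, of the small heat shock protein family, and lies at chr15:38219203-38226735. It was at 12.141 and 12.178 in KO and at 12.144 and 12.143 in WT testes. KO replicate 2 was the highest array and KO replicate 1 the lowest, so that the groups overlapped, and the difference was 0.016 (95% interval -0.11 to 0.14). Odf2, at chr2:29889014-29931746, encodes a fibre protein that is also known from centrioles. Its signals were 11.749 and 11.730 in KO and 11.750 and 11.826 in WT testes. KO replicate 1 and WT replicate 1 of Odf2 were 0.00035 apart, and WT replicate 2 stood apart. Its difference of -0.048 (95% interval -0.19 to 0.089) was -0.010 without WT replicate 2.

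Smcp, at chr3:92583866-92589073, encodes a cysteine-rich protein of the outer membrane of sperm mitochondria. It was at 12.314 and 12.310 in KO and at 12.341 and 12.362 in WT testes, and the lower WT pool was 0.028 above the higher KO pool, the widest gap of the 10 genes. The difference was -0.039 (95% interval -0.16 to 0.083, adjusted p = 0.9995 from limma). The ordinary equal-variance test, which takes only the spread of Smcp itself, gave Smcp the smallest unadjusted p of the 10 genes, 0.0605, with an adjusted p above 0.9999. Spata19, at chr9:27396807-27401711, encodes a protein that takes part in the assembly of the sheath's mitochondria. It was at 11.742 and 11.688 in KO and at 11.683 and 11.711 in WT testes. Its groups overlapped, with KO replicate 1 the highest array, and its difference was 0.018 (95% interval -0.11 to 0.15).

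By structure, the median difference was -0.032 for the 6 fibrous sheath genes, -0.016 for the 2 outer dense fibre genes and -0.011 for the 2 mitochondrial sheath genes. In all, 7 of the 10 genes were lower on average in KO testes, and the intervals of all 10 span 0. Lower on average were also 43.4% of all genes and 51.9% of the 715 genes in the members' range of mean level. Of the 10 haploid spermatid markers, 7 were lower as well. The count of sperm tail genes was 8 after quantile normalization, against 43.7% of all genes. For 5 of the 10 genes (Akap3, Akap4, Odf2, Ropn1l and Smcp) both KO pools were lower than both WT pools. This held for 12.2% of all genes, 17.1% of the 715 genes and 3 of the 10 haploid spermatid markers. The count of 5 depended on the scaling of the arrays. It was 2 of 10 after quantile normalization, where this held for 12.3% of all genes. After each array was centred on its median it was 0 of 10, against 8.02% of all genes. For 0 of the 10 both KO pools were the higher ones, against 20.3% of all genes and 14.5% of the 715 genes. The array medians of the named probe sets lay between 7.08 and 7.11.

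**Figure D2:**
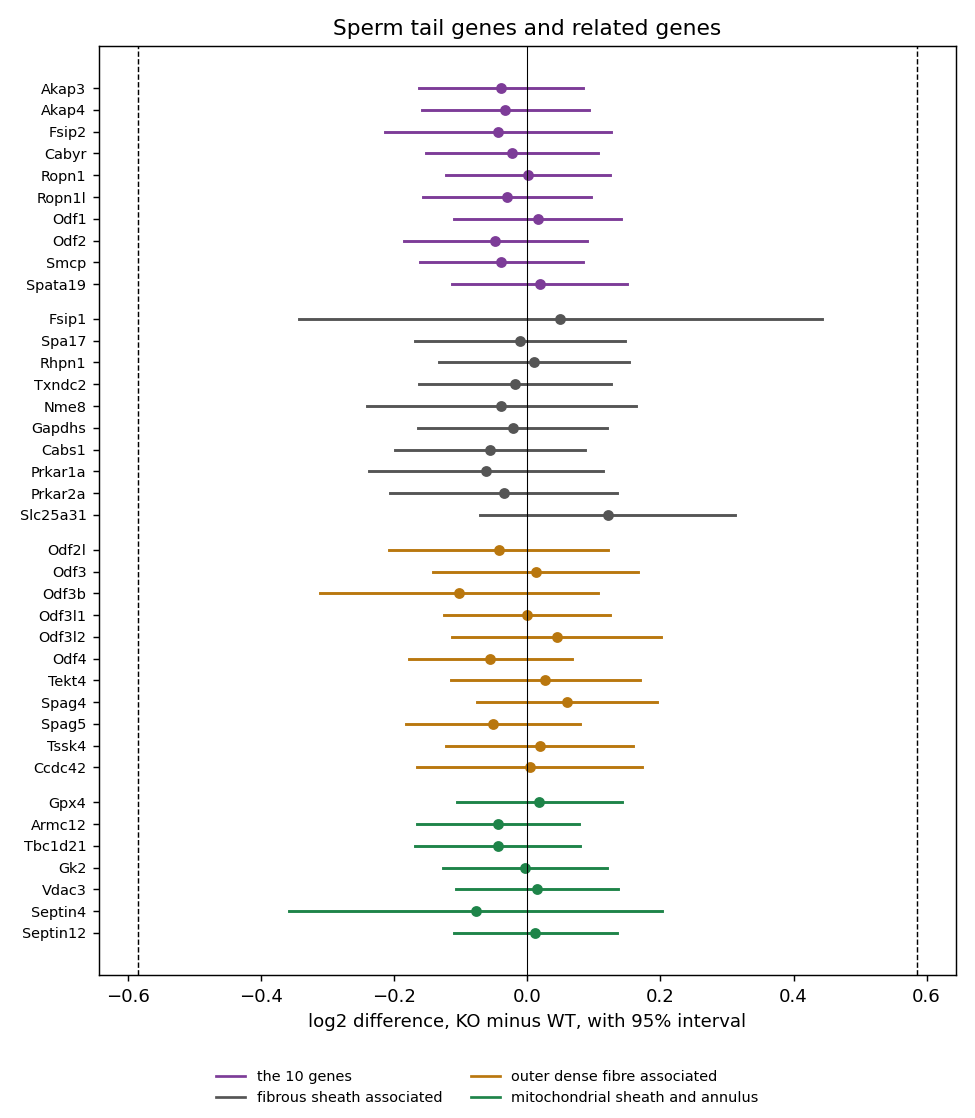
Log2 difference, KO minus WT (horizontal axis), with 95% intervals from limma, for the 10 genes (purple) and for 28 related genes in 3 lists (grey, brown and green). Dashed lines mark a fold of 1.5, and all intervals lie between them and span 0.

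For 9 of the 10 genes the SD between pools of one genotype was below the median over all genes. It ranged from 0.010 for Smcp to 0.073 for Fsip2 with a median of 0.020, against a median of 0.058 over all genes and of 0.030 over the 715 genes as bright as these. With each probe set's spread modelled on its intensity, the intervals of the 10 genes ran from -0.18 to 0.10 at the widest, and the smallest unadjusted p was 0.175, that of Smcp.

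**Figure D3:**
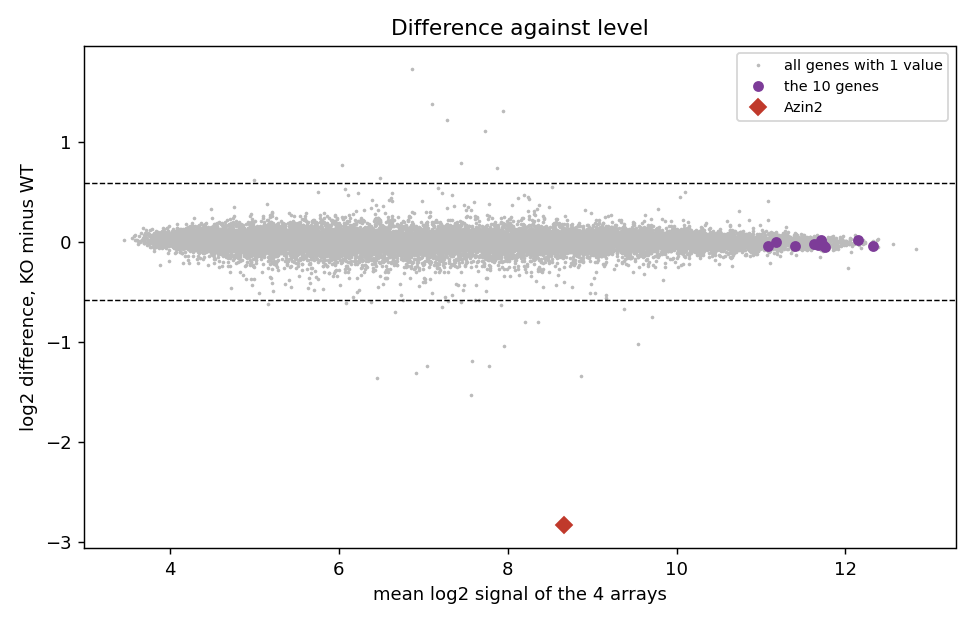
Log2 difference, KO minus WT (vertical axis), against the mean log2 signal of the 4 arrays for 18820 genes (grey), the 10 sperm tail genes (purple) and Azin2 (red). Dashed lines mark a fold of 1.5; the 10 genes lie at the bright end between -0.048 and 0.018, and Azin2 lies at -2.83.

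WT replicate 2 gave the highest value for 7 of the 10 genes (the other 3 are Odf1, Ropn1 and Spata19), as it did for 23.8% of all genes and for 35.1% of the 715 genes in the same range of level. The count was also 7 after quantile normalization, against 22.3% of all genes, and after centring, against 25.5%. The mean of the 10 genes, relative to its mean over the 4 arrays, was 0.029 in WT replicate 2, -0.0069 in WT replicate 1, -0.011 in KO replicate 1 and -0.012 in KO replicate 2. Without WT replicate 2 the median difference was -0.0081, with 6 genes below 0 and 4 above. The mean of the 10 haploid spermatid markers was also highest in WT replicate 2 (0.034 relative to the 4 arrays), which was the highest array for 6 of them, among them the transition protein gene Tnp2, but neither for the protamine gene Prm1 nor for Tnp1. In the same array, markers of Sertoli cells (-0.13 over 9 genes) and spermatogonia (-0.11 over 8 genes) were lowest, and macrophage markers (0.19 over 6 genes) highest. Leydig cell markers were lowest in KO replicate 1 (-0.19 over 6 genes), and spermatocyte markers stayed between -0.019 and 0.041. In RNA from whole testes, fewer cells of a type and less RNA per cell cannot be told apart, and the part of these cell type markers in the values of the 10 genes was not tested.

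**Figure D4:**
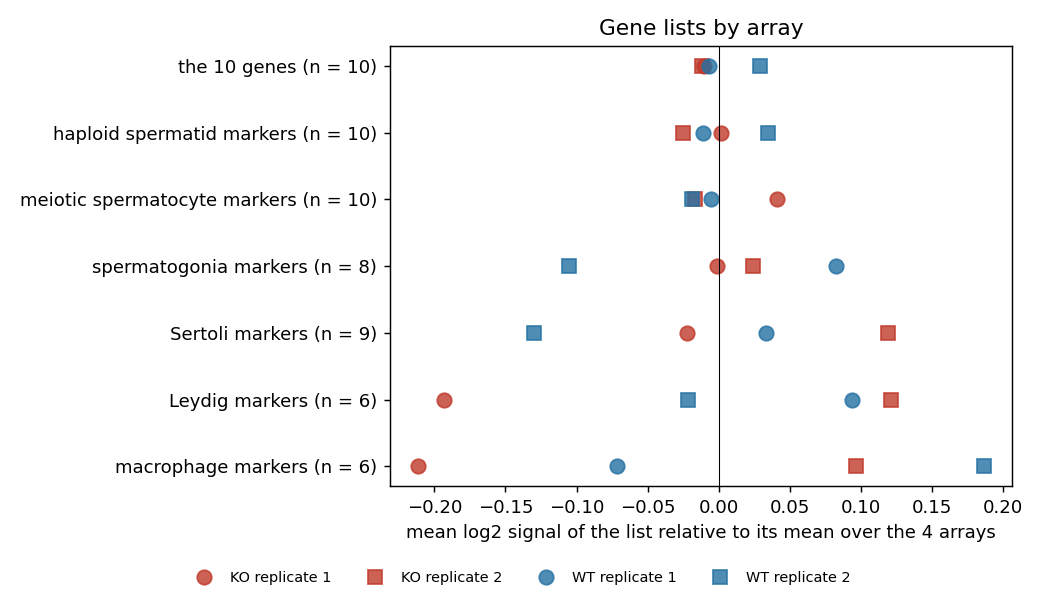
Mean log2 signal of the 10 genes and of 6 lists of cell type markers, each relative to its own mean over the 4 arrays (horizontal axis), with KO pools in red, WT pools in blue, circles for replicate 1 and squares for replicate 2. The 10 genes span -0.012 to 0.029 and stay closer together than the somatic and spermatogonia markers, of which macrophage markers span -0.21 to 0.19.

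Other genes of the same structures were measured as 3 lists of 30 genes, of which 28 had a value of their own. Prkaca, a catalytic subunit of protein kinase A, shares its probe set with another gene, and Gykl1 was not named in the annotation. None of the 28 passed an adjusted p of 0.05 from limma in either direction, 0 had an unadjusted p under 0.05 from limma and 2 had one by the ordinary equal-variance test, which gave one to 4.996% of the named probe sets. All 28 intervals lay inside a fold of 1.5 either way.

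Among 10 genes of fibrous sheath residents and partners, 7 were below 0 and 3 above, with a median of -0.020. The largest differences were 0.12 for Slc25a31, the ADP/ATP carrier of sperm and male germ cells, and 0.050 for Fsip1 on the higher side. On the lower side they were -0.062 for Prkar1a, a regulatory subunit of protein kinase A, and -0.057 for Cabs1, a calcium-binding protein of elongating spermatids. The KO pools of Slc25a31, at 10.438 and 10.265, lay above its WT pools, at 10.203 and 10.259. Its 95% interval was -0.071 to 0.31.

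The 11 genes linked to the outer dense fibres had a median difference of 0.0036, with 5 below 0 and 6 above. Odf3b was at -0.10 and Odf4 at -0.055 on the lower side, and Spag4, whose protein binds ODF1, at 0.059 and Odf3l2 at 0.044 on the higher side. Odf3l2 was dim, with a signal between 4.51 and 4.63, below the median of every array. The KO pools of Odf4 were lower than its WT pools, and those of Spag4 higher, with no overlap.

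Of 7 genes of the mitochondrial sheath and the annulus, the ring between midpiece and principal piece, 4 were below 0 and 3 above, with a median of -0.0034. Septin4, a septin of the annulus, was at -0.077 (95% interval -0.36 to 0.20) and Tbc1d21 at -0.045. Gpx4, the selenoprotein of the mitochondrial capsule, was at 0.018, and the channel gene Vdac3 at 0.015. Over the 28 genes both KO pools were the lower ones for 4 genes, where this held for 12.2% of all genes, and the higher ones for 4, where this held for 20.3%.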

How the data were processed

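Gene expression was measured in 4 testis RNA pools with the Affymetrix Mouse Gene 1.1 ST array. The authors deposited RMA values, which are log2 signals with 1 value for each probe set, and the submitters' processing notes name Partek 6.13.1224. The genome build and annotation version behind the values are not given in the sources used here. Of 35556 probe sets, 21218 were named with 1 gene, 1881 with several and 12457 are unnamed here. A gene took its probe set with the highest mean, and those with several genes gave no value.

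The genotypes were compared with the R package limma 3.58.1 under R 4.3.3 (lmFit and eBayes, no trend, no filter) on the 23099 named probe sets. The prior degrees of freedom were 2.96. Calls were made at a Benjamini-Hochberg adjusted p under 0.05, and as an alternative at the study's fold of 1.5 with an unadjusted p under 0.05. The other alternatives were an intensity trend with and without robust eBayes, the methods' test for single genes, quantile normalization, centring, a filter on dim probe sets, all probe sets of the table, a replicate block, the mean of a gene's probe sets, and each array left out. The 10 members, the related genes and the markers were chosen with earlier results of these data known, so that lists are described by counts and medians without a test. All 10 members are named, and of each related list the 2 largest differences in each direction. The promoter comparison was chosen after the sequences were seen. The fit was tested on simulated data. Plots were made in Python 3.11.15 with matplotlib 3.10.9.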

Additional observations from a re-analysis of the deposited data

How the results depend on the processing

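The count of 0 of 10 sperm tail genes and 0 of 28 related genes called by limma was the same under every alternative for which calls were counted, that is, all but the mean over a gene's probe sets, and the adjusted p of the 10 genes was 0.920 or higher in all of them. The count over all named probe sets, 1 at an adjusted p under 0.05, was 19 at a fold of 1.5 and an unadjusted p under 0.05, 0 by the ordinary equal-variance test (1154 at an unadjusted p under 0.05, and 6 of these at a fold of 1.5), 0 over every probe set of the table, and 0 to 2 upon leaving out single arrays, where the remaining array of that genotype is assumed to vary like those of the other. The median difference of the 10 genes, -0.032, was -0.039 after quantile normalization, -0.017 after centring, and -0.048 to -0.0081 when each array was left out, the last without WT replicate 2. The sign of 5 genes changed when an array was left out: their differences ranged from -0.0031 to 0.034 for Odf1, -0.0078 to 0.011 for Ropn1, -0.051 to 0.0046 for Cabyr, -0.0087 to 0.045 for Spata19 and -0.11 to 0.024 for Fsip2. That of Ropn1 was also -0.0075 after quantile normalization; the cause was not tested. Same-numbered pools of KO and WT did not deviate together (r = -0.082 across probe sets), and with the replicate block 0 of the 10 genes and 1 probe set were called, and the median difference was -0.032. Each member has 1 probe set, so that the mean over a gene's probe sets left its value as it was. Precision is limited by 2 arrays for each genotype, and signals this far above the array's median leave the upper end of the scale as a limit that was not tested.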
